A study of Rattus norvegicus with 6 samples.

Results

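Intermediate filaments and the nuclear lamina were followed in neonatal rat ventricular cardiomyocytes (NRVCs), which are isolated from newborn hearts and kept in primary culture, through 10 genes: Vim, Des, Nes, Synm, Krt8, Krt18, Krt19, Lmna, Lmnb1 and Lmnb2. The list was drawn up with earlier results of these arrays in view, in which Vim was lower with C3a. The probe that stands for a gene was chosen by its mean signal over all 6 arrays, the brightest being taken, so these mean signals are a description and the C3a contrast was not used to choose between probes. All 10 genes had a probe named by accession, 14 probes in all out of 45598, against 16575 genes named in this way on the whole array. Probes were kept when every one of the 3 arrays of the control group, or of the C3a group, had them well above background. This left 9 of the 10 genes and 12 of the 14 probes, Krt19 being the gene without a kept probe.

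The control group was cultured in medium without C3a, and the C3a group received recombinant C3a, the fragment released when C3 is cleaved, at 0.5 µg/ml for 12 h. Both groups came from unmodified Sprague-Dawley rats of 1 to 2 days of age, with the hearts of 8 to 10 animals pooled in a preparation. The sample records give a serum-free medium, and the methods a short starvation in low serum before stimulation. Each of the 3 control and 3 C3a samples was hybridised to its own 1-colour Agilent array. Nothing in the records says that replicates came from separate preparations, so p-values measure only the spread between these samples, which may be technical.

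Intermediate filaments are rope-like polymers that give cells mechanical strength. Desmin (Des) is the muscle member and ties the Z-discs of the sarcomere to each other and to the cell membrane. Vimentin (Vim) is typical of mesenchymal cells such as fibroblasts, and also of endothelial cells. Nestin (Nes) and synemin (Synm) join the filaments of desmin or of vimentin. Keratins 8, 18 and 19 are the simple epithelial keratins, and the lamins line the inner face of the nuclear envelope in every nucleated cell.

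The cultures were checked against markers of the cells they could hold. Of 12 cardiomyocyte markers, 11 had a probe and all 11 were well above background on all 6 arrays. Fibroblast markers were kept for 12 of 12 genes, 9 of them on all 6 arrays, so RNA of other cells was present besides that of cardiomyocytes. In such bulk RNA, fewer cells of a type and less RNA per cell cannot be told apart. Control replicate 1 stood apart in its background: 38.6% of its probes were well above background, against 53.7% to 57.3% on the other arrays. All 6 arrays shared 1 slide, whose sides held one group each, so side and treatment cannot be told apart.

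The bases before the annotated start of 4 genes are shown because these genes form the pairs compared below, Vim against Des and Krt8 against its filament partner Krt18. They are the 250 bases upstream in RefSeq on the GRCr8 assembly, 5′ to 3′ on the strand of the gene. The windows lie at chr17:81577011-81577260 for Vim (plus strand), chr9:84299376-84299625 for Des (plus), chr7:135010340-135010589 for Krt8 (minus) and chr7:135035918-135036167 for Krt18 (plus). Capitals mark matches, on either strand, to TATAAA (the usual TATA box letters), to GGGCGG (the GC box) and to CCAAT.
Vim: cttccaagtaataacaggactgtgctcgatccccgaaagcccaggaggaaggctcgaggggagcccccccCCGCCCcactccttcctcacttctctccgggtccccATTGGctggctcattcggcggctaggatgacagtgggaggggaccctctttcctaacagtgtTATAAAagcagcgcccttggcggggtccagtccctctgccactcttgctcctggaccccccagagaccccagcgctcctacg
Des: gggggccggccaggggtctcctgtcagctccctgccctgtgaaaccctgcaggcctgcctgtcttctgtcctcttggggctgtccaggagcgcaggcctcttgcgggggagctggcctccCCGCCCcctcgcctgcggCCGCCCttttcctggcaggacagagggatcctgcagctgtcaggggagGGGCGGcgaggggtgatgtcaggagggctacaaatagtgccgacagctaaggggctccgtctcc
Krt8: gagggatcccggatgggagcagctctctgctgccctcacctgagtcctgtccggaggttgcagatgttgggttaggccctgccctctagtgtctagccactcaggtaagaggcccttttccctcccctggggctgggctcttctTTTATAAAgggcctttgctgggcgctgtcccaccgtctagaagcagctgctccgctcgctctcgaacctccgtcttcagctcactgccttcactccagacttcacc
Krt18: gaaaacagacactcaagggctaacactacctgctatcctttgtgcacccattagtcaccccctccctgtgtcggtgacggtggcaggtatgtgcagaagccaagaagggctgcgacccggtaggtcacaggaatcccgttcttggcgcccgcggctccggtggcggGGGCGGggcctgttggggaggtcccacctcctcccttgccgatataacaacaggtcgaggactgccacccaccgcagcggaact

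The Vim window held TATAAA from base 82 to base 77 before the start, 1 GC box and 1 CCAAT box. The Krt8 window held TATAAA from base 106 to base 101 on one strand and from base 104 to base 99 on the other, and these matches overlap. The Des window held 3 GC boxes and the Krt18 window 1, and neither held TATAAA or CCAAT. Of all 27457 promoter windows of this length, 13.1% held TATAAA, 32.4% GGGCGG and 34.3% CCAAT. The AP-1 letters TGANTCA, searched likewise, were in none of the 4 windows and in 6.36% of all. The E-box letters CANNTG were found 3 times in the Krt8 window, once in that of Des and in neither of the others, against 65.2% of all windows with at least 1. These matches describe the letters and do not show that a factor binds there.

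Whether C3a changed these genes was asked with the log2 of the background-corrected signal minus that of the array's 75th percentile, here called the relative log2 signal. A value of 0 is a probe as bright as that percentile. Probes differ in how well they bind, so relative log2 signals of different genes give no order of their RNA levels, and only differences between arrays are compared. In limma, whose variance estimate borrows from all probes, 0 of the 9 kept genes passed an adjusted p of 0.05, as did 0% of all 23438 kept probes. The adjusted p of the 9 genes lay between 0.743 and 0.987. At an unadjusted p under 0.05 it was 0 genes in either direction, against 3.34% of kept probes higher with C3a and 2.48% lower. Of the 9 genes, 5 had a log2 fold change above 0 and 4 below, with a median of 0.0055 beside 0.048 for all kept probes.

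**Figure D1:**
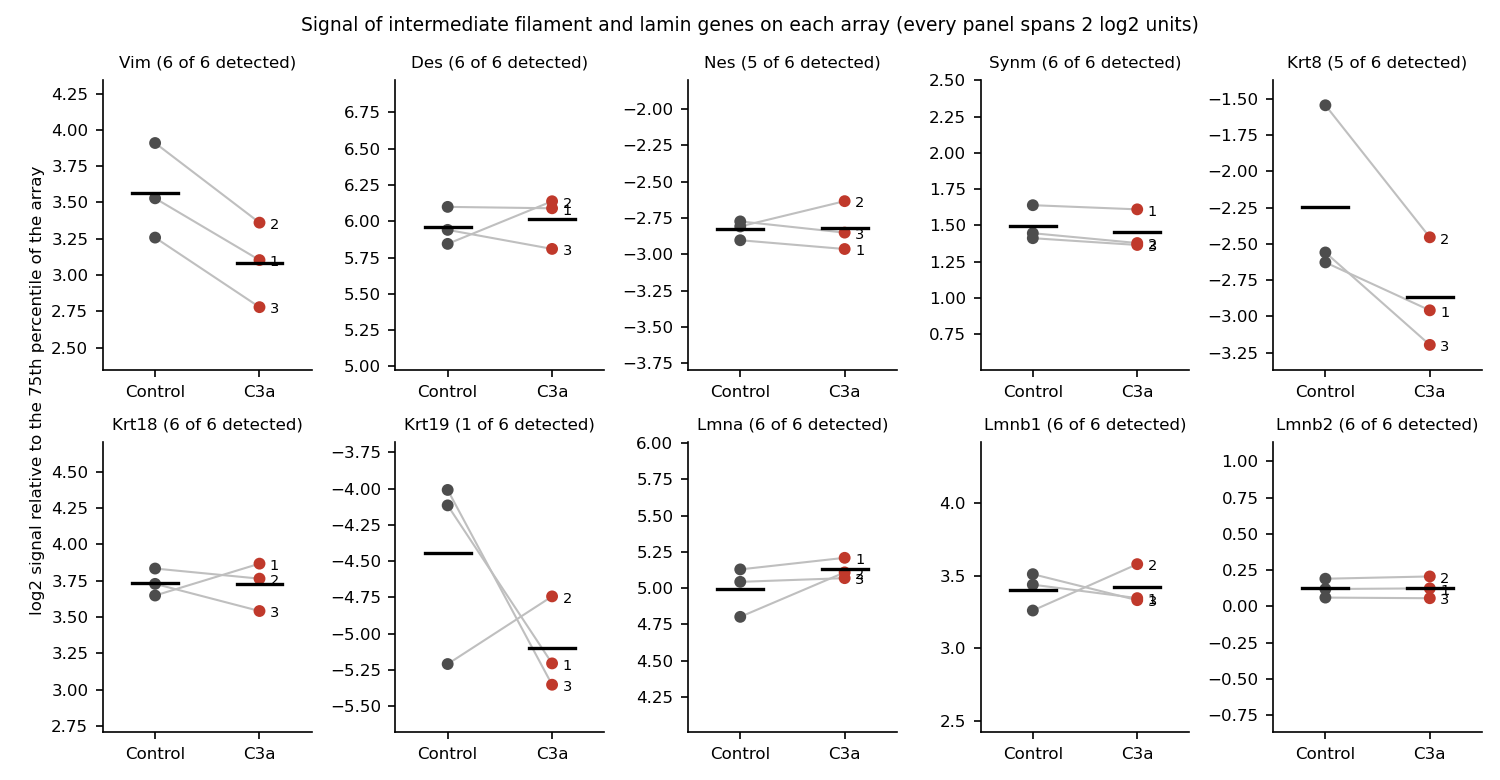
Relative log2 signal (y axis) of the brightest probe of each gene on the 3 control and 3 C3a arrays, with grey lines joining equal replicate numbers, black bars at the group means and the number of arrays with the probe well above background in each title. Vim and Krt8 lie lower on the C3a array of every pair, and Krt19 was detected on 1 of 6 arrays.

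Vim was the bright gene with the largest difference. It has 1 probe named by accession, so no other Vim probe could be set beside it. Its relative log2 signal was 3.53, 3.91 and 3.26 on control replicates 1, 2 and 3, and 3.10, 3.36 and 2.78 on C3a replicates 1, 2 and 3. Control replicate 2 was the highest array and C3a replicate 3 the lowest, and the groups overlapped, since C3a replicate 2 lay above control replicate 3. The mean was 3.57 ± 0.33 (SD, n = 3) in the controls and 3.08 ± 0.29 (SD, n = 3) after C3a. The log2 fold change was -0.48 (standard error 0.208), which is 0.715 of the control level. Its unadjusted p from limma was 0.052, rank 1423 of 23438 probes, and its adjusted p = 0.743 from limma.

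By replicate number, Vim was lower with C3a by a similar amount in each pair. The C3a array minus the control array of the same number was -0.43, -0.55 and -0.48 for numbers 1, 2 and 3. Arrays of equal number deviated together over all kept probes, so the replicate block was fitted as well. Arrays of equal number also share their place along the slide, so a shared preparation and a shared place cannot be told apart. With the replicate block the standard error of the Vim change was 0.0882 and the unadjusted p from limma 0.0021, rank 202, while its adjusted p = 0.221 from limma remained above 0.05. Among the 9 genes, Vim and Krt8 were lower at an unadjusted p under 0.05 in that fit and 0 were higher, against 5.83% of kept probes lower and 7.82% higher. No kept probe passed the adjusted threshold with the block (0%). Vim was one of 3 genes lower in 3 of 3 pairs, with Krt8 and Synm, where 13.7% of kept probes were, and Lmna was the 1 gene higher in 3 of 3, where 25.2% were.

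**Figure D2:**
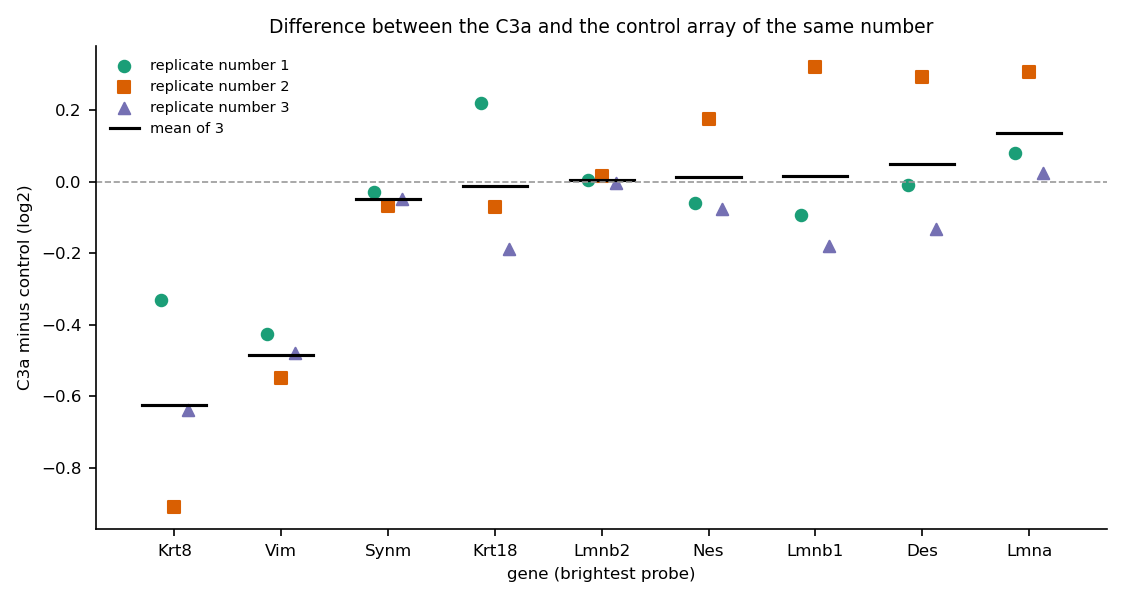
C3a minus control (y axis, log2) for the arrays of replicate number 1, 2 and 3, for the brightest probe of the 9 kept genes in order of their mean (black bar). The 3 differences of Vim lie between -0.55 and -0.43, while those of Des lie on both sides of 0.

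The Vim probe is printed 10 times on each array, which gives the error of the spots. The SD of the relative log2 signal among the 10 spots lay between 0.0465 and 0.0864 on the 6 arrays, so that the standard error of the mean of an array was at most 0.0273. The SD between the arrays of a group, 0.33 and 0.29, was above this, and the error of the spots says nothing of the spread between cultures. For Krt18 and Lmna, whose brightest probes are printed 10 times as well (1 Krt18 spot was left out on some arrays), the SD among spots lay between 0.0315 and 0.0462 and between 0.0298 and 0.0499.

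**Figure D3:**
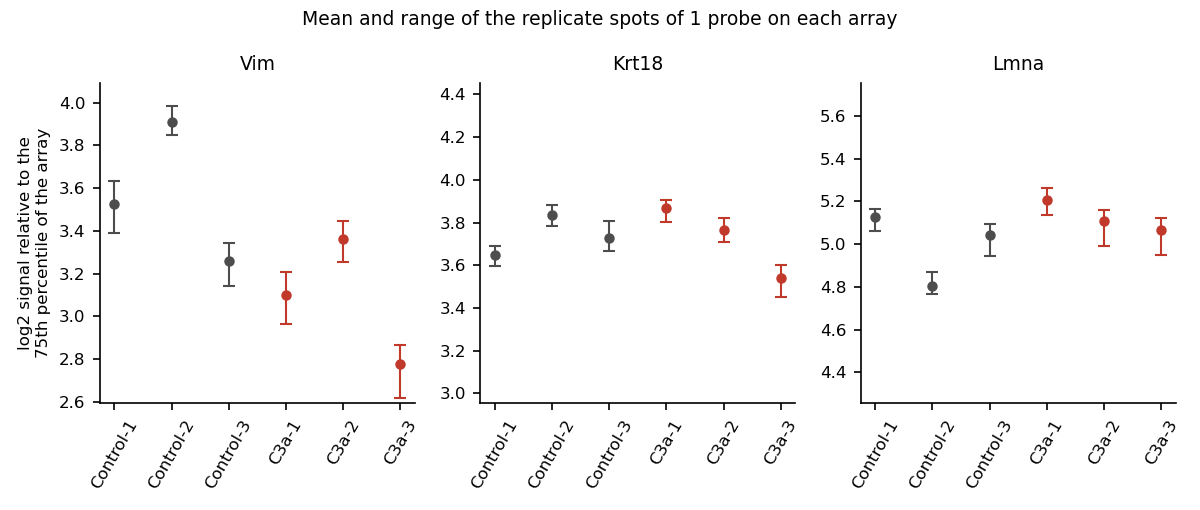
Mean and range (bars) of the spots of the Vim, Krt18 and Lmna probes on each array (y axis, relative log2 signal), with controls in grey and C3a in red. The bars of a single array are short beside the distance between arrays for Vim, whose array means run from 2.78 to 3.91.

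The order of the arrays for Vim followed the brightness of the array. The 75th percentile was 367 intensity units on control replicate 2 and 288 on C3a replicate 2, 273 and 269 on control replicates 1 and 3, 230 on C3a replicate 1 and 207 on C3a replicate 3. The Vim signal relative to that percentile took the same order but for control replicate 1 and C3a replicate 2, which changed places. Of all kept probes, 1895 (8.09%) were likewise highest on control replicate 2 and lowest on C3a replicate 3, and 1998 (8.52%) were the reverse. The part of array brightness in the Vim difference was not tested.

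Des, the filament protein of the myocytes themselves, showed no such difference. Its relative log2 signal was 6.10, 5.84 and 5.94 on control replicates 1 to 3 and 6.09, 6.14 and 5.81 on C3a replicates 1 to 3. The highest and the lowest of the 6 arrays were both C3a arrays, and the groups overlapped. The log2 fold change was 0.051 (standard error 0.127; adjusted p = 0.912 from limma), with -0.0097, 0.29 and -0.13 by replicate number. No direction is given, since the value was -0.069 with quantile normalization and -0.0076 without control replicate 2.

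Vim was set against Des on the same array, where the scaling of the array cancels. The Vim minus Des difference of relative log2 signals was -2.57, -1.93 and -2.68 on the controls and -2.99, -2.78 and -3.03 on the C3a arrays, in the order of their numbers. All 3 C3a arrays lay below all 3 controls. The mean was -2.40 ± 0.40 (SD, n = 3) in the controls and -2.93 ± 0.14 (SD, n = 3) after C3a, so the Vim to Des ratio with C3a was 0.69 of that in the controls, a log2 difference of -0.54. A two-sided exact permutation test gave p = 0.1, the smallest that 3 against 3 arrays allow, and 0.3 after adjustment over the 3 differences examined. Among single kept probes, 4.46% lay below in the same manner and 8.04% above. The share among differences of 2 probes was not counted and may be another. By replicate number the differences were -0.42, -0.84 and -0.35, and without control replicate 2 the mean difference was -0.31. The pair was chosen with the lower Vim signal known, so these values are a description.

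**Figure D4:**
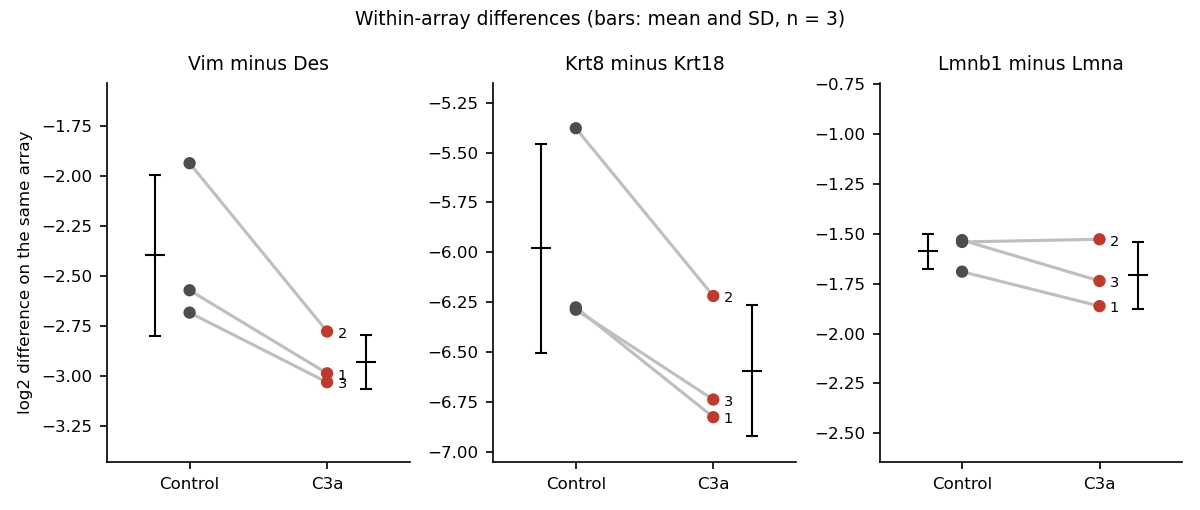
Differences of the relative log2 signals of 2 genes on the same array (y axis, log2) in the control and C3a groups, with lines joining equal replicate numbers and black bars for the mean and SD of 3 arrays. Vim minus Des is the one of the 3 differences whose groups do not overlap.

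Nestin and synemin, the other partners of these filaments, lay close to the controls. Nes is dim, and control replicate 1 was the 1 array of 6 where it was not well above background. Its relative log2 signal was -2.90, -2.81 and -2.77 on the controls and -2.96, -2.63 and -2.85 on the C3a arrays, with a log2 fold change of 0.012 (standard error 0.115; adjusted p = 0.978 from limma). The brighter Synm probe gave 1.64, 1.45 and 1.41 on the controls and 1.61, 1.38 and 1.36 with C3a, and the groups overlapped. Its log2 fold change was -0.048 (standard error 0.116; adjusted p = 0.909 from limma). A dim second Synm probe, measured on 2 of 3 control arrays, passed the filter through the C3a arrays, where it was higher. It gave a value of opposite sign, 0.41 (standard error 0.274; adjusted p = 0.743 from limma), so the 2 probes give no common direction.

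Among the simple epithelial keratins, Krt8 had the largest difference of the 9 genes. Its probe is dim and was well above background on every array but control replicate 1. The relative log2 signal was -2.63, -1.54 and -2.56 on control replicates 1, 2 and 3, and -2.96, -2.45 and -3.20 on C3a replicates 1, 2 and 3. Control replicate 2 stood above the other 5 arrays, and C3a replicate 2 lay above the 2 other controls. The log2 fold change was -0.63 (standard error 0.321; adjusted p = 0.743 from limma), with -0.33, -0.91 and -0.64 by replicate number. With the replicate block its unadjusted p from limma was 0.00427 and the adjusted p = 0.221 from limma. Without control replicate 2 the value was -0.28, and with normexp background correction it was -0.21. As for Vim, the order of the arrays was that of their 75th percentile, apart from control replicates 1 and 3, and the part of array brightness was not tested.

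Krt18, whose protein pairs with that of Krt8 in one filament, was bright and similar in both groups. Its relative log2 signal was 3.65, 3.83 and 3.73 on the controls and 3.87, 3.76 and 3.54 with C3a, so that the highest and lowest arrays were both C3a arrays. The log2 fold change was -0.012 (standard error 0.118; adjusted p = 0.978 from limma), and a second, dimmer probe gave -0.15 (standard error 0.183; adjusted p = 0.809 from limma). The Krt8 minus Krt18 difference was -6.28, -5.38 and -6.29 on the controls and -6.83, -6.22 and -6.74 on the C3a arrays. It was lower with C3a, with a mean log2 difference of -0.61, and lower in 3 of 3 pairs. C3a replicate 2 lay within the range of the controls (two-sided exact permutation test, p = 0.3, and 0.4 after adjustment over the 3 differences). Without control replicate 2 the mean difference was -0.31, and with normexp background correction it was -0.16.

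Krt19 was not kept, since control replicate 3 was the 1 array of 6 on which it was detected. Its relative log2 signal was -4.12, -5.21 and -4.01 on the controls and -5.20, -4.74 and -5.35 on the C3a arrays, close to the dimmest signals that an array detected. The mean of the controls, which counts arrays without detection, was 1.01-fold above that limit on the C3a arrays, which is no measurable difference. Markers of the mesothelium and epicardium, the layer in the heart best known for these keratins, were kept for 6 of 7 genes with a probe. Their summed signal ranged from 6.5 to 8.28 times the 75th percentile on the controls and from 6.94 to 7.97 on the C3a arrays. All 6 had a log2 fold change above 0, with a median of 0.16 beside 0.048 for all kept probes. At an unadjusted p under 0.05, 0 of the 6 were called, against 3.34% of all kept probes higher and 2.48% lower. With the replicate block 0 were called as well, against 7.82% and 5.83%. The part of these cells in the keratin values was not tested.

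The lamins differed little between the groups. Lmna, which encodes the A-type lamins that stiffen the nucleus, has 2 probes. The brighter gave a relative log2 signal of 5.13, 4.80 and 5.04 on the controls and 5.21, 5.11 and 5.07 with C3a, where control replicate 2 was the lowest array. The brighter probe had a log2 fold change of 0.14 (standard error 0.116; adjusted p = 0.756 from limma), and the second probe, also of 10 spots, gave 0.19 (standard error 0.135; adjusted p = 0.744 from limma). Both probes were higher in 3 of 3 pairs. The value of the brighter probe was 0.042 without control replicate 2. It was -0.19 without normalization between arrays, where the median of all kept probes was -0.28. No direction is given.

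Of the B-type lamins, which stay anchored to the nuclear membrane by a lipid, Lmnb1 gave 3.44, 3.26 and 3.51 on the controls and 3.35, 3.58 and 3.33 with C3a. The groups overlapped, with a log2 fold change of 0.016 (standard error 0.118; adjusted p = 0.973 from limma). Lmnb2 had the narrowest range over the 6 arrays of the 9 genes. It lay at 0.12, 0.19 and 0.061 on the controls and at 0.12, 0.21 and 0.057 with C3a, with a log2 fold change of 0.0055 (standard error 0.0944; adjusted p = 0.987 from limma). A second, dimmer Lmnb2 probe was detected on control replicates 2 and 3 and on 0 of 3 C3a arrays, and was not tested. Its mean on the controls, -3.79, counts control replicate 1, where it was not detected. That mean was 1.41-fold above the limit on the C3a arrays, so near it that no difference is read from this probe. The brighter probe showed no such difference. The Lmnb1 minus Lmna difference had a mean of -1.59 ± 0.089 (SD, n = 3) in the controls and -1.71 ± 0.17 (SD, n = 3) after C3a (two-sided exact permutation test, p = 0.4).

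Genes whose proteins work with these filaments were taken from lists written with the earlier results known. Of 28 other intermediate filament and related genes, 24 had a probe and 11 were kept, while 13, among them Gfap and the neurofilaments Nefl, Nefm and Nefh, were not well above background on any array. At an unadjusted p under 0.05, 1 of the 11 was higher and 0 were lower, against 3.34% and 2.48% of all kept probes, and the median log2 fold change was 0.080 beside 0.048 over all kept probes. With the replicate block 2 were higher, Krt7 and Krt5, and 0 lower, against 7.82% and 5.83% of all kept probes. Krt5 was dim, measured on 2 of 3 control arrays, and passed the filter through the C3a arrays, where it was higher. Genes called with the block alone, here and in the lists that follow, are outside the naming rule and were named after their values were seen. The 1 gene was Krt7, a further simple epithelial keratin and type II like Krt8. It gave -3.68, -3.41 and -3.26 on the controls and -2.62, -3.13 and -2.21 with C3a. All 3 C3a arrays lay above all 3 controls, as they did for 8.04% of all kept probes. The log2 fold change of Krt7 was 0.79 (standard error 0.238, unadjusted p from limma 0.0122 and adjusted p = 0.743 from limma). The probe was dim and was not detected on control replicate 1. It passed the filter through the C3a arrays, where it was higher, and normexp background correction gave 0.33.

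Proteins that link filaments to desmosomes and Z-discs or chaperone them had 9 kept genes of 12 with a probe. At an unadjusted p under 0.05, 0 were higher and 0 lower, against 3.34% and 2.48% of all kept probes. With the replicate block 1 was higher, Pkp2, and 1 lower, Hspb8, against 7.82% and 5.83%. The median log2 fold change was 0.063. The brightest were Cryab and Hspb1, small heat shock proteins that bind desmin, and both groups overlapped for each. For the nuclear envelope, whose proteins bind the lamins, 21 of 21 genes with a probe were kept. Of these, 2 were higher at an unadjusted p under 0.05 and 0 were lower, against 3.34% and 2.48% of all kept probes, and the median was 0.022. With the replicate block 4 were higher (Nup107, Banf1, Syne4 and Fntb) and 2 lower (Tor1aip1 and Lemd3), against 7.82% and 5.83%. The 2 without the block were Nup107, a subunit of the nuclear pore, with 0.45 (standard error 0.165), and Syne3, a linker of the outer nuclear membrane to the cytoskeleton, with 0.28 (standard error 0.118). Adjusted p = 0.743 from limma for both, and control replicate 1 did not measure either. Both passed the filter through the C3a arrays. With the replicate block the unadjusted p from limma was 0.0146 for Nup107 and 0.0685 for Syne3. After spike-in scaling Nup107 was -0.0077 and Syne3 -0.17, where the median of all kept probes was -0.41.

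Marker lists of the cells that carry vimentin were read beside Vim. The summed signal of the 12 fibroblast markers ranged from 448 to 561 times the 75th percentile on the controls and from 501 to 668 on the C3a arrays. Of the 12, 3 had a log2 fold change above 0 and 9 below, with a median of -0.043, and 1 was lower at an unadjusted p under 0.05, with and without the replicate block, against 5.83% and 2.48% of all kept probes. In both fits this was Lum, a proteoglycan of the collagen matrix, with -0.54 (standard error 0.21; adjusted p = 0.743 from limma), which was not detected on control replicate 1 and whose groups overlapped. With normexp background correction Lum was at -0.13. The brightest fibroblast probes were S100a4, at 8.77, 8.40 and 8.71 on the controls and 9.08, 8.76 and 8.61 with C3a, and Col1a2, whose log2 fold change was 0.011.

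Endothelial markers, 5 kept of 7 with a probe, summed to 33.1 to 45.8 on the controls and 42.2 to 53.4 with C3a. Their median was 0.14 beside 0.048 for all kept probes. At an unadjusted p under 0.05, 0 were called, against 3.34% of all kept probes higher and 2.48% lower. With the replicate block 0 were called, against 7.82% and 5.83%. Smooth muscle and pericyte markers, 8 of 8 kept, summed to 44.0 to 52.8 and 46.9 to 50.9. Of these, 1 was higher at an unadjusted p under 0.05 and 2 with the replicate block, against 3.34% and 7.82% of all kept probes. With the block these were Notch3 and Acta2, and without it Notch3, a receptor of mural cells, with 0.41 (standard error 0.173). Notch3 was measured on 2 of 3 control arrays. It was 0.23 without control replicate 2 and -0.045 after spike-in scaling, where the median of all kept probes was -0.41. It passed the filter through the C3a arrays, where it was higher. Cardiomyocyte markers summed to 5360 to 6900 on the controls and 6670 to 7560 with C3a, with a median of 0.16. Of these, 0 were called without the block, against 3.34% of all kept probes higher and 2.48% lower. With the block 1 was called in each direction, Tnnc1 higher and Actn2 lower, against 7.82% and 5.83%. Macrophage markers had 4 of 8 kept, C1qa and Mrc1 being well above background on no array, and summed to 5.67 to 7.06 and 5.62 to 6.14. Proliferation genes, 8 of 8 kept, summed to 26.5 to 27.3 and 26.1 to 29.3. In these last 2 lists 0 genes were called in either fit. The shares of all kept probes were 3.34% higher and 2.48% lower, and 7.82% and 5.83% with the block. The summed cardiomyocyte, fibroblast, endothelial and smooth muscle signals were lowest on control replicate 2, where Vim was highest, and that of the mesothelium and epicardium was highest there. S100a4 makes up most of the fibroblast sum. The mean relative log2 signal of the 12 fibroblast genes, which weights them equally, was 1.09 on control replicate 2 and lowest, at 1.03, on C3a replicate 2. The part of any of these cells in the Vim difference was not tested.

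For Vim and Des, the 5 genes with the most similar pattern were found among the 10392 genes with a kept probe. Likeness was the root mean square difference, over the 6 arrays, of log2 signals after subtraction of the gene's own mean. For Vim these were Setd6, Nrbp1, Vps16, Umps and Laptm4b, at 0.042 to 0.055. Of the other kept genes of the list, Krt8 was closest to Vim, at 0.23 and rank 771, and Des stood at 0.36 and rank 4108. For Des the closest were Mapkapk2, Fbrs, Slc25a11, B3galt4 and Mrpl4, at 0.012 to 0.025, and Lmna was the closest of the list, at 0.10 and rank 2043. With so many genes and 6 arrays these are descriptions of array patterns.

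The size of the Vim difference depended on the processing. Of 19 alternatives, 6 leave the fold change as it is by construction, and the other 13 gave values below 0. Vim stood at -0.81 when arrays were not scaled to each other and at -0.94 after spike-in scaling, where the median of all kept probes was -0.28 and -0.41. With array weights, which give less weight to arrays far from the others, it was -0.21. Without control replicate 2 it was -0.31. Vim minus Des was between -0.68 and -0.31 in the 9 of 14 alternatives that can move it, since a scaling of the whole array cancels in it.

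**Figure D5:**
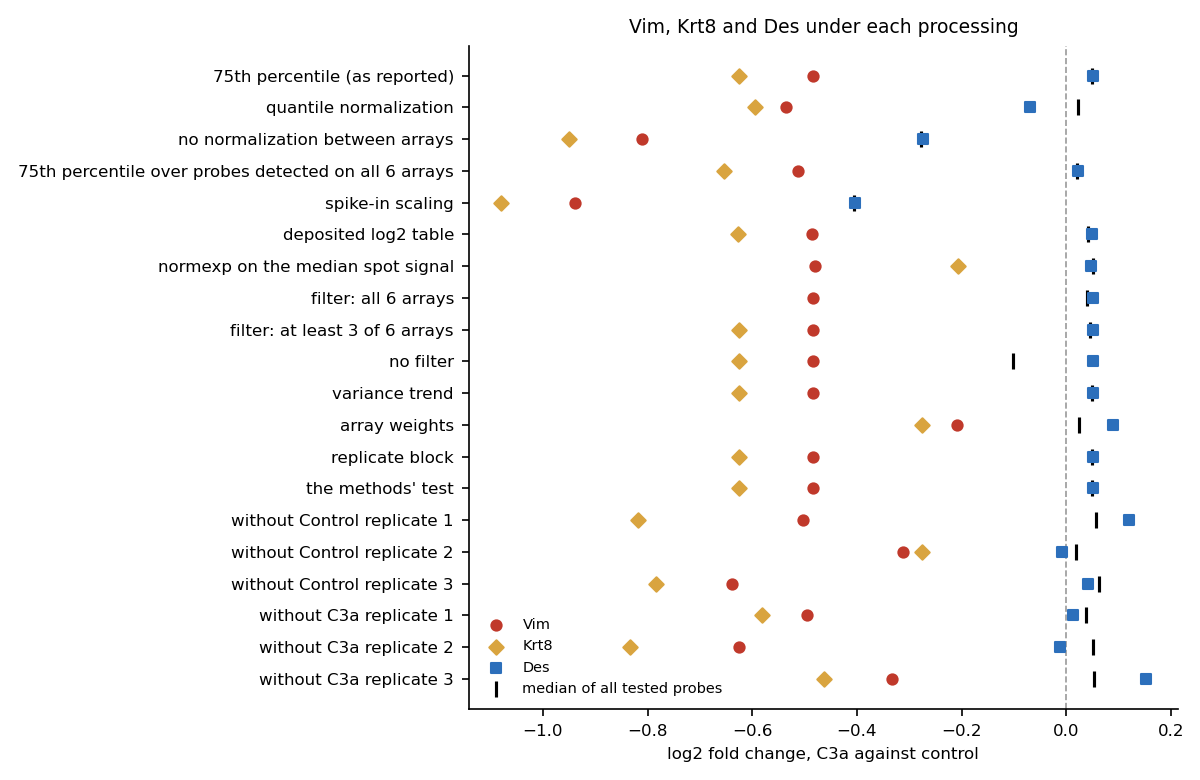
Log2 fold change, C3a against control (x axis), of Vim, Krt8 and Des under each processing (y axis), with the median of all tested probes as a black tick. Vim and Krt8 lie below 0 throughout, from -0.94 to -0.21 for Vim, while Des lies on both sides of 0.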

How the data were processed

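RNA of 3 control and 3 C3a cultures of NRVCs was measured on 1-colour Agilent arrays. The authors deposited spot intensity values from Agilent Feature Extraction 11.5.1.1, corrected there for background and array trends, and a log2 table of 36638 probes. The authors' methods name GeneSpring, but the deposited log2 values matched the scanner values minus the 75th percentile, uncentred, to within 0.00624 at the median (computed here). Its column medians ran from -3.13 to -2.998, so scale, centring and direction were settled by this match.

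Control spots and spots with an outlier flag were left out, and the rest averaged per probe. A probe counted as well above background where 50% of its spots did. Accessions of 21109 of 45598 probes (46.3%) matched the GRCr8 gene table. The groups were compared in R 4.3.3 (limma 3.58.1), with Benjamini-Hochberg adjustment over 23438 kept probes; the fit was tested on simulated data. Group differences of single values used exact permutation tests. Samples were grouped by their titles. Arrays of equal replicate number correlated in their deviations from the group mean (0.281, 0.32 and 0.312), which is where the pairing comes from. Other pairs gave -0.255 to -0.0932. Deviations cancel within a group, so positive values at equal numbers by themselves push those of the other pairs down. The pairing was thus read from the same arrays that the replicate block was fitted to. The number of arrays limits the precision, and no spot was saturated.

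The members and lists were chosen with earlier results of these data known. Every member is reported, with the one Vim probe, and the 5 genes closest in pattern to Vim and to Des, and from the other lists genes at an unadjusted p under 0.05 and some of the 2 brightest. Alternatives were other scalings, normexp (offset 50) on the median spot signal since no mean is given in the files used, other filters, a variance trend, array weights, the replicate block, each array left out, all probes of a gene, and the test of the methods (equal variance, 2 groups). The deposited table has no unmatched columns (0). The result of 1 marker list is not reported here. Figures used matplotlib 3.10.9.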

Additional observations from a re-analysis of the deposited data

How the results depend on the processing

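Of the 9 genes, Vim and Krt8 kept their sign in the 13 alternatives each that can move their fold change, and no gene of the list passed an adjusted p of 0.05 in any. Values of the other genes changed sign as follows. No normalization, spike-in scaling and the percentile over probes detected on all arrays each move the fold change of every probe by the same amount. The median of all kept probes was then -0.28, -0.41 and 0.0197. For the remaining settings the cause was not tested. Without normalization between arrays the values were -0.27 for Des, -0.31 for Nes, -0.19 for Lmna, -0.31 for Lmnb1, -0.32 for Lmnb2 and -0.041 for Syne3. With spike-in scaling they were, in the same order, -0.40, -0.44, -0.32, -0.44, -0.45 and -0.17, with -0.0077 for Nup107 and -0.045 for Notch3. Quantile normalization gave -0.069 for Des and -0.033 for Lmnb1. The percentile over probes detected on all arrays gave -0.017 for Nes, -0.013 for Lmnb1 and -0.023 for Lmnb2, normexp -0.039 for Nes, array weights 0.032 for Krt18 and -0.020 for Lmnb1, and the mean over its probes 0.18 for Synm. Leaving out each array gave -0.012 to 0.15 for Des, -0.079 to 0.086 for Nes, -0.13 to 0.022 for Synm, -0.084 to 0.079 for Krt18, -0.065 to 0.070 for Lmnb1 and -0.033 to 0.042 for Lmnb2.

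At an unadjusted p under 0.05, 783 probes were higher and 581 lower. With the replicate block, in which the pairs are those of equal replicate number, these were 1832 and 1366, and no call in the list changed at the adjusted threshold. They were 41 and 2558 without normalization, 9 and 1281 with spike-in scaling, 351 lower with normexp, 370 higher with probes detected on all 6 arrays, 359 higher without a filter and 356 lower in the methods' test. With 1 array left out these counts were 441 to 1263 higher and 268 to 876 lower, the extremes without C3a replicate 3 and without control replicate 3. At the adjusted threshold 0 probes became 4 lower without normalization, and 1 higher and 3 lower with spike-in scaling. Krt8, Nes and Krt19 were not well above background on control replicate 1, which limits their precision. Normexp on the mean spot signal was not run.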
